A study of Mus musculus with 6 samples.

Results

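The miR-200 family was examined in small RNA libraries of mouse extracellular vesicles (EVs). Members were the rows of the deposited count table named as a mature arm of miR-200a, miR-200b, miR-200c, miR-141 or miR-429, which gave 9 of the 1966 mature miRNAs listed. A further arm, miR-429-5p, is listed as well and had 1 count in a single colon EV library, so it was not followed. The libraries came from 3 preparations of colon explant EVs and 3 of bone marrow–derived dendritic cell (BMDC) EVs, and all 6 carry the label Rab27A fl/fl, a floxed allele, with no Cre and no treatment of the mice named. By the study's methods, the mice were young adult littermates of both sexes on a C57BL/6 background. Colons were opened and cultured for 16 hours, and fraction 2 of an iodixanol density gradient was sequenced. BMDCs were grown from bone marrow with GM-CSF for 7 days, and the labels describe no gradient for their vesicles, whereas the study's text names the gradient for both sources, so whether purification differed is not settled here. The explant medium held serum depleted of exosomes and BMDC medium was complete RPMI, so the source and the medium differ together between the groups and cannot be told apart, and neither can any difference in purification. The study set these libraries side by side to ask which miRNAs the vesicles of both sources share. A colon explant holds epithelium, immune cells and stroma, so its vesicles are a mixture. In such bulk samples, fewer vesicles from one cell type and less of a miRNA per vesicle cannot be told apart either.

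The miR-200 family is a textbook marker of epithelial cells. Its members bind the messages of ZEB1 and ZEB2, which repress E-cadherin, and ZEB1 and ZEB2 in turn repress transcription of the miR-200 genes, a loop that separates epithelial from mesenchymal states. In the intestine these miRNAs are known from the epithelial lining. The study measured miR-141 by qPCR in colon explant vesicles sorted by an epithelial or a haematopoietic label. It reported no change in miR-141 between them and used it as a control. Which cells the family in these colon EV libraries came from was not tested here. A miRNA recognizes its targets mainly by its seed, the bases from position 2 to position 8 counted from the 5′ end, and each hairpin can release one miRNA from its 5′ side (5p) and another from its 3′ side (3p).

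The family comes from 5 hairpins in a pair of genomic clusters. On chromosome 4 of GRCm38, Mir200b, Mir200a and Mir429 lie on the minus strand within 1846 bp, from 156053905 to 156055750, inside the protein-coding gene Ttll10 and the noncoding gene Gm13648. Mir200b and Mir200a are intronic to both, whereas Mir429 overlaps an exon of Gm13648. On chromosome 6, Mir200c and Mir141 lie on the minus strand within 477 bp, from 124717914 to 124718390, intronic to Gm15884, a noncoding antisense gene, and Mir141 also overlaps an exon of the unclassified gene Gm29008. The 3p arms are printed first, because they carry nearly all of the counts and their seeds divide the family. RefSeq mature sequences on GRCm38.p6 were found for all 9 members, and capitals mark the seed:
mmu-miR-200b-3p: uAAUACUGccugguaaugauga
mmu-miR-200c-3p: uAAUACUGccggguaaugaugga
mmu-miR-429-3p: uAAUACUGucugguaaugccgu
mmu-miR-200a-3p: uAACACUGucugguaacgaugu
mmu-miR-141-3p: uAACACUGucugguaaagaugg

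miR-200b-3p, miR-200c-3p and miR-429-3p shared 1 seed, and miR-200a-3p and miR-141-3p shared the other. These seeds differ by the substitution U4C, written with the miR-200b-3p base first and counted from the 5′ end of the mature miRNA. No mature miRNA outside the family in the RefSeq table had either seed. Each seed group thus has members from both clusters. The closest pairs were miR-200b-3p and miR-200c-3p, which differ by U11G and A22G over the 22 positions compared, and miR-200a-3p and miR-141-3p, which differ by C17A and U22G. In each of these pairs, 1 member comes from chromosome 4 and the other from chromosome 6. The estimated counts of miR-200c-3p had a fractional part in all 6 libraries, and those of miR-200b-3p in 3 colon EV libraries and 1 BMDC EV library. How reads matching more than 1 miRNA were divided is not given in the sources used here, so levels of these near-identical members are uncertain to that extent. The 5p arms belong to the same hairpins and were the rarer products:
mmu-miR-200b-5p: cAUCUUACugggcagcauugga
mmu-miR-200a-5p: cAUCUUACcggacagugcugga
mmu-miR-141-5p: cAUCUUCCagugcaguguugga
mmu-miR-200c-5p: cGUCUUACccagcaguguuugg

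miR-200a-5p and miR-200b-5p shared a seed, while the seeds of miR-141-5p and miR-200c-5p were each held by no other RefSeq mature miRNA. Mature members were 22 or 23 bases long, so levels were compared between members without scaling for length. Other effects of sequence on how well a miRNA is counted were not tested. The orders of members and the shares of arms below therefore describe counts.

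The total count was between 173348 and 645290 in colon EV libraries and between 83980 and 178443 in BMDC EV libraries. At these totals, 3 counts, taken as the floor, correspond to 4.65 to 17.3 CPM (the count over the library total, scaled to a total of 1e+06) in colon EVs and to 16.8 to 35.7 CPM in BMDC EVs. Colon EV replicate 1 was the deepest library and BMDC EV replicate 2 the shallowest. Over miRNA lists chosen as markers, 7 of 7 haematopoietic miRNAs were called higher in BMDC EVs, against 40.5% of all tested miRNAs. Of 9 epithelial miRNAs outside the miR-200 family, 8 were called lower, against 36.4% of all tested miRNAs. These 8 include all 4 of the list with 10 counts in every library, against 33.1% of the tested miRNAs with such counts. The other 5 epithelial miRNAs fell short of 10 counts in at least 1 library. The libraries of a source are separate samples by their labels, but nothing in the labels says that they came from separate animals, so p-values here measure the spread between these samples. Wherever values of the 3 libraries of a source follow each other, they stand in the order of replicates 1, 2 and 3.

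The miR-200 family was a major component of colon EVs and a trace component of BMDC EVs. The 9 members together held 16.0%, 13.7% and 13.2% of all counts in the colon EV libraries. They held 0.378%, 0.489% and 0.228% in the BMDC EV libraries. Every colon EV library was therefore far above every BMDC EV library, with means of 14.3% ± 1.52 (SD, n = 3) and 0.365% ± 0.131 (SD, n = 3). An exact two-sided permutation test of this difference gave p = 0.1, which is the smallest that 3 libraries against 3 can give. In BMDC EVs, 406 to 479 counts of the family were present per library, well over the floor. That floor covers counting error only, and the origin of these counts was not tested. The 95% Wilson interval of the share was 0.207% to 0.251% in BMDC EV replicate 3 and 0.444% to 0.539% in replicate 2, so these libraries of the same source differed by more than counting error, which is all the interval covers. As a summed level scaled by TMM (edgeR's trimmed mean of M values), the family had a log2 value of 14.97 ± 0.27 (SD, n = 3) for colon EVs against 9.15 ± 0.51 (SD, n = 3) for BMDC EVs. The log2 difference was −5.82 with a standard error of 0.33 (exact permutation p = 0.1, again the smallest possible).

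**Figure D1:**
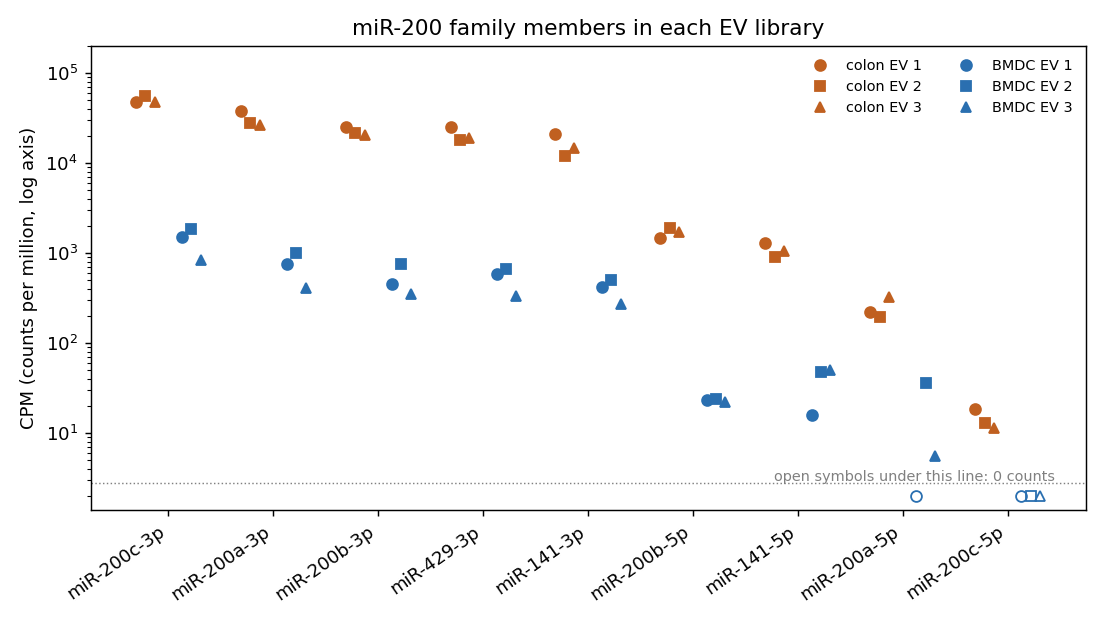
Level of each miR-200 family member in each library, in CPM on a log axis, with colon EV libraries in orange and BMDC EV libraries in blue. Every colon EV point is above every BMDC EV point of the same member, and open symbols at the bottom mark 0 counts (miR-200c-5p in all BMDC EV libraries, miR-200a-5p in 1).

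The most abundant member in both sources was miR-200c-3p, from the chromosome 6 cluster. It had 47940, 54914 and 47800 CPM in colon EVs, where it was number 5 or 6 of all miRNAs in the library. It had 1514, 1858 and 829 CPM in BMDC EVs, where it was number 52 to 74. All 3 colon EV values were above all BMDC EV values, and BMDC EV replicate 3 was the lowest library. Normalized counts, which are TMM-scaled, were 11299.7 ± 1169.9 (SD, n = 3) for colon EVs against 227 ± 78.9 (SD, n = 3) for BMDC EVs. The log2 fold change of BMDC EVs over colon EVs was −5.65 (standard error 0.31, adjusted p = 2.05e-11 by edgeR's quasi-likelihood test).

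miR-200a-3p, of the other seed group, followed with 37423, 27633 and 26767 CPM in colon EVs, against 757, 1000.2 and 409 CPM in BMDC EVs. Colon EV replicate 1 was the highest library and BMDC EV replicate 3 the lowest. Its log2 fold change was −5.92 (standard error 0.34, edgeR adjusted p = 2.49e-11). miR-200b-3p, its neighbour in the chromosome 4 cluster, had 25359, 21375 and 20416 CPM in colon EVs, against 457, 762 and 353 CPM in BMDC EVs. The sources did not overlap, and the log2 fold change was −5.93 (standard error 0.32, edgeR adjusted p = 2.05e-11).

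miR-429-3p, the last hairpin of that cluster, had 25455, 17850 and 18858 CPM in colon EVs and 592, 667 and 331 CPM in BMDC EVs. These values did not overlap between sources either, with a log2 fold change of −5.80 (standard error 0.32, edgeR adjusted p = 2.05e-11). miR-141-3p was the least abundant 3p arm, with 21031, 12121 and 14826 CPM in colon EVs and 418, 500.1 and 275 CPM in BMDC EVs. It varied more among colon EV libraries than the other 3p arms, with a coefficient of variation of 36.5% against 10.4% for miR-200c-3p. For miR-141-3p the log2 fold change was −5.85 (standard error 0.33, edgeR adjusted p = 2.46e-11).

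The 3p arms were close to each other in the size of the source difference. Their log2 fold changes were between −5.93 and −5.65, a range smaller than the standard error of any of them. Expressed as mean normalized counts, BMDC EVs had 1.68% of the colon EV level of miR-200a-3p and 2.01% of that of miR-200c-3p, the ends of the range over the 5 arms. Leaving out any BMDC EV library made these differences smaller, most of all replicate 3, in which each 3p arm was at its lowest. Without replicate 3 the log2 fold changes of the 3p arms were −5.29 to −4.98, and all 5 stayed past the adjusted p threshold. They were −5.54 to −5.31 without replicate 1 and −5.79 to −5.44 without replicate 2. With more miRNAs kept in the fit, by a filter on 2 libraries in place of 3, they were −5.78 to −5.45 without replicate 3. By that filter they were −5.96 to −5.71 without replicate 1 and −6.32 to −5.95 without replicate 2. All 5 differences were then larger without replicate 2 than with all 6 libraries. The size of the shift thus depended on the filter as well, and for replicate 2 so did its direction.

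The order of the 3p arms in colon EVs was miR-200c-3p, miR-200a-3p, miR-200b-3p, miR-429-3p and miR-141-3p. miR-200c-3p was above miR-200a-3p in all 3 libraries, by 1.28 to 1.99 times, with no overlap of their ranges. miR-200a-3p was likewise above miR-200b-3p, by 1.29 to 1.48 times. miR-200b-3p and miR-429-3p did not differ beyond their spread, with a ratio of 0.996 to 1.20. miR-429-3p exceeded miR-141-3p within each library, by 1.21 to 1.47 times, but their ranges across libraries overlapped. In BMDC EVs the order was the same except that miR-429-3p and miR-200b-3p changed places, and these also did not differ beyond their spread. All neighbouring 3p arms overlapped in range there, although miR-200c-3p was 1.86 to 2.03 times miR-200a-3p within each library.

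Of the 5p arms, miR-200b-5p was the most abundant, with counts of 952, 443 and 297 for colon EVs against 3, 2 and 4 for BMDC EVs. In CPM these were 1475, 1904 and 1713 in colon EVs and 23.7, 23.8 and 22.4 in BMDC EVs. BMDC EV values lay near the floor and under the minimum of 10 counts, so miR-200b-5p entered the test through its colon EV libraries alone and the size of the change is loosely bounded. Pooled over libraries, the colon EV level was 98.6 times the BMDC EV level, with an exact 95% interval of 51.8 to 216 for counting error alone. The fitted log2 fold change, a description for an arm admitted in this way, was −6.60 (standard error 0.36).

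For miR-141-5p the counts were 840, 210 and 181 in colon EVs against 2, 4 and 9 in BMDC EVs. The pooled level in colon EVs was 43.0 times that in BMDC EVs (exact 95% interval 26.0 to 77.1). For miR-200a-5p they were 145, 46 and 57 in colon EVs against 0, 3 and 1 in BMDC EVs, a pooled ratio of 32.5 with an exact 95% interval of 12.5 to 120. The intervals of all 3 ratios overlap. Both arms likewise reached 10 counts in colon EV libraries alone, so a difference was built into their passing the filter. As a description, fitted log2 fold changes were −5.27 for miR-141-5p (standard error 0.42) and −4.91 for miR-200a-5p (standard error 0.68). Single BMDC EV libraries moved these sizes. Without BMDC EV replicate 1, 2 or 3 the log2 fold change of miR-200a-5p was −3.95, −6.04 or −4.10, and that of miR-141-5p was −4.48 without replicate 1.

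miR-200c-5p, the other arm of the hairpin that gave the most abundant member, was counted 12, 3 and 2 times in colon EVs and 0 times in each BMDC EV library. It did not reach the minimum of 10 counts in 3 libraries and was not tested. Against a floor of 3 counts over all BMDC EV libraries, the pooled colon EV level was 2.97 times as high, and the exact 95% lower limit of the ratio, which also covers the error of the 17 colon EV counts, was 2.16.

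Of the 9 members, 8 passed the filter of 10 counts in 3 libraries, 5 of them (the 3p arms) with 10 counts in all 6 libraries and 3 of them (the 5p arms) through colon EVs alone. All 5 of the 3p arms were lower in BMDC EVs with an adjusted p under 0.05. Among the 130 tested miRNAs with 10 counts in all 6 libraries, 33.1% were called lower in BMDC EVs by the same test. Over all 220 tested miRNAs, 36.4% were called lower and 76.8% in either direction. The 5 3p arms also had every colon EV library above every BMDC EV library, which held for 37.7% of those 130 miRNAs and 39.1% of all tested miRNAs. The 5p arms are left out of these counts, since a difference was built into their passing the filter. The median log2 fold change was −5.85 over the 3p arms and 0.19 over all tested miRNAs. The 3p arms were between number 8 and number 13 from the lowest log2 fold change of all tested miRNAs.

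**Figure D2:**
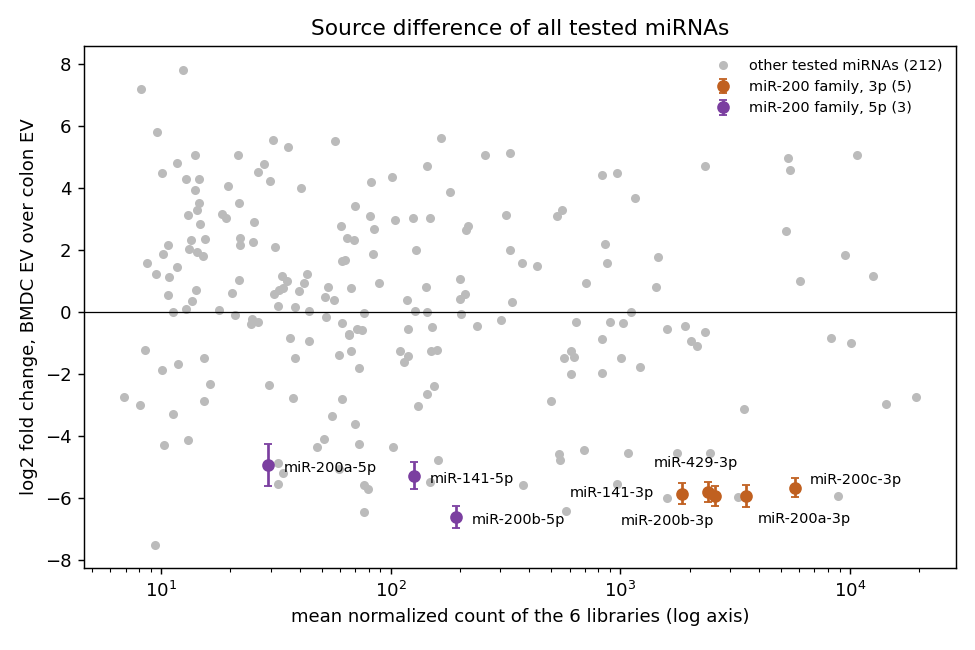
Log2 fold change of BMDC EVs over colon EVs (vertical axis) against the mean normalized count of the 6 libraries (log horizontal axis) for all 220 tested miRNAs, with bars of 1 standard error on the members. The 5 tested 3p arms lie together between −5.93 and −5.65 at high counts, and the 3 tested 5p arms lie between −6.60 and −4.91 at lower counts.

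Within the family, no 3p arm differed in its share between the sources by more than the spread between libraries. miR-200c-3p held 35.4% ± 5.15 (SD, n = 3) of the family's counts in colon EVs, against 38.2% ± 1.82 (SD, n = 3) for BMDC EVs. miR-200a-3p held 21.3% ± 1.79 (SD, n = 3) and 19.5% ± 1.32 (SD, n = 3), respectively. The shares of miR-200b-3p were 15.6% ± 0.169 (SD, n = 3) for colon EVs against 14.4% ± 1.98 (SD, n = 3) for BMDC EVs. For miR-429-3p the shares were 14.4% ± 1.43 (SD, n = 3) and 14.6% ± 1.02 (SD, n = 3), and for miR-141-3p they were 11.1% ± 2.14 (SD, n = 3) and 11.1% ± 0.926 (SD, n = 3). Exact permutation tests of these 5 shares gave p between 0.3 and 1. With 3 libraries a source, this does not show that the make-up is equal.

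**Figure D3:**
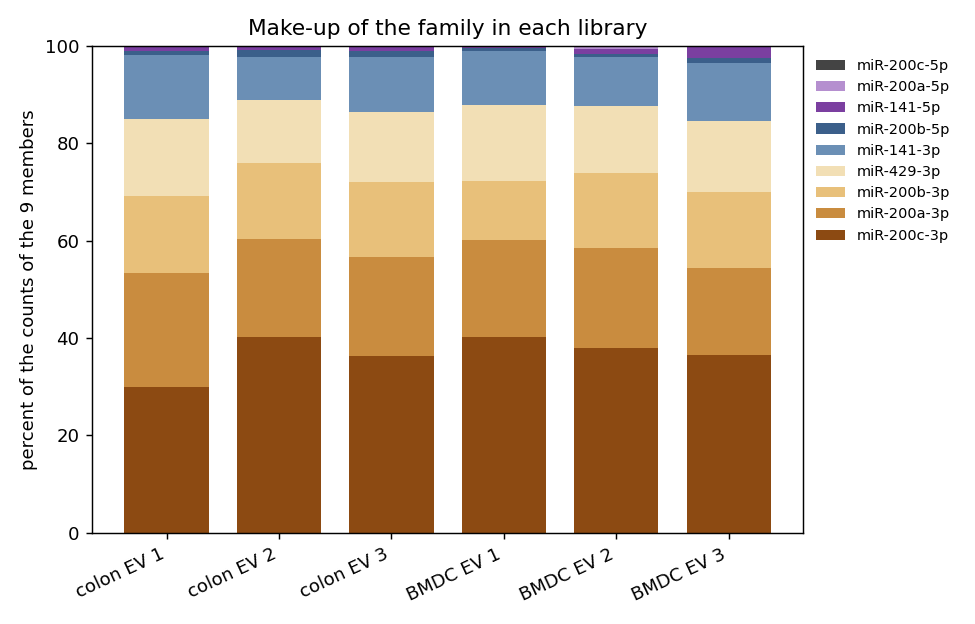
Percent of the summed counts of the 9 members held by each member, 1 bar for each library. In all 6 libraries miR-200c-3p is the largest segment, from 29.9% in colon EV replicate 1 to 40.1% in colon EV replicate 2, and the 5p arms are thin segments at the top.

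By genomic cluster, counts divided nearly evenly. The chromosome 4 cluster held 56.1%, 50.4% and 51.7% of the family's counts in colon EVs, against 48.4%, 50.9% and 49.3% in BMDC EVs. Colon EV replicate 1 stood above the other colon EV libraries by more than the counting intervals, and BMDC EV replicate 2 lay within the range of the colon EV libraries. The log2 ratio of the chromosome 4 cluster over the chromosome 6 cluster was 0.16 ± 0.18 (SD, n = 3) for colon EVs against −0.03 ± 0.07 (SD, n = 3) for BMDC EVs. The difference of −0.19 (standard error 0.11) did not exceed the spread between libraries (exact permutation p = 0.2), and without colon EV replicate 1 it was −0.09.

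By seed group, the miR-200b, miR-200c and miR-429 seed was the more abundant in all 6 libraries. It held 62.8%, 70.3% and 67.7% of 3p counts in colon EVs. In BMDC EVs it held 68.6%, 68.7% and 68.9%, values that lie between those of colon EV replicates 2 and 3. Colon EV replicate 1 had the lowest share, with a 95% Wilson interval of 62.5% to 63.1% that does not meet those of the other colon EV libraries. The log2 ratio of the seed groups was 1.02 ± 0.25 (SD, n = 3) for colon EVs against 1.13 ± 0.01 (SD, n = 3) for BMDC EVs. This difference of 0.11 (standard error 0.14) was within the spread between libraries (exact permutation p = 0.7), and it changed direction to −0.02 without colon EV replicate 1.

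The hairpins differed in the share of their 5p arm. Mir200c and Mir141, neighbours on chromosome 6 of GRCm38, are printed because they lie far apart in this share, with both mature arms in capitals, the 5p arm first:
Mir200c, chr6:124718322-124718390, minus strand: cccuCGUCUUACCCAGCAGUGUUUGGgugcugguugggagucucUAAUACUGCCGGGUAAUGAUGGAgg
Mir141, chr6:124717914-124717985, minus strand: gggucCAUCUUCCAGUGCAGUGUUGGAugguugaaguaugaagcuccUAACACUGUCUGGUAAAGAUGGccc

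In colon EVs, the 5p arm held 0.0388%, 0.0235% and 0.0241% of the counts of the Mir200c hairpin. It held 5.83%, 6.93% and 6.58% of those of the Mir141 hairpin. All 3 libraries thus showed the same order, and the ranges were far apart. The 5p share of Mir200b in colon EVs was 5.50%, 8.18% and 7.74%, near that of Mir141. For Mir200a, it was 0.597%, 0.710% and 1.21%, between the others. Taken over the family, 5p arms made up 2.15% ± 0.238 (SD, n = 3) of the counts in colon EVs, against 2.23% ± 1.20 (SD, n = 3) in BMDC EVs.

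In BMDC EVs these shares rest on few counts. The 5p share of the Mir141 hairpin was 3.64%, 8.70% and 15.5%, and the 95% Wilson interval of the last was 8.38% to 26.9%. For Mir200b it was 4.92%, 3.03% and 5.97%, and for Mir200a 0%, 3.45% and 1.35%. No count of miR-200c-5p was seen beside 192, 156 and 148 counts of miR-200c-3p, which allows a share of up to 1.56%, 1.92% and 2.03%, far above the share in colon EVs. A lower 5p share of Mir200c than in colon EVs, or a higher one under these limits, was thus not detectable at this depth.

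Arm usage between the sources was tested for the other hairpins with diffSpliceDGE of edgeR, which compares the arms of each hairpin, over all 38 hairpins with both arms tested, of which 18.4% were called. Mir200b, Mir200a and Mir141 were not called. Their 5p arms passed the filter through colon EVs alone and had 0 to 9 counts per BMDC EV library. With so few counts a difference could be missed, so the tests do not show that arm usage is equal. The log2 fold change of the 5p arm minus that of the 3p arm was −0.67 for Mir200b (edgeR adjusted p = 0.463), 1.01 for Mir200a (adjusted p = 0.631) and 0.58 for Mir141 (adjusted p = 0.602). From the log2 arm ratios per library, the differences of the source means were −0.47, 1.01 and 0.51, respectively, with standard errors of 0.32, 0.93 and 0.60. Exact permutation tests of these gave p = 0.3, 0.4 and 0.5.

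**Figure D4:**
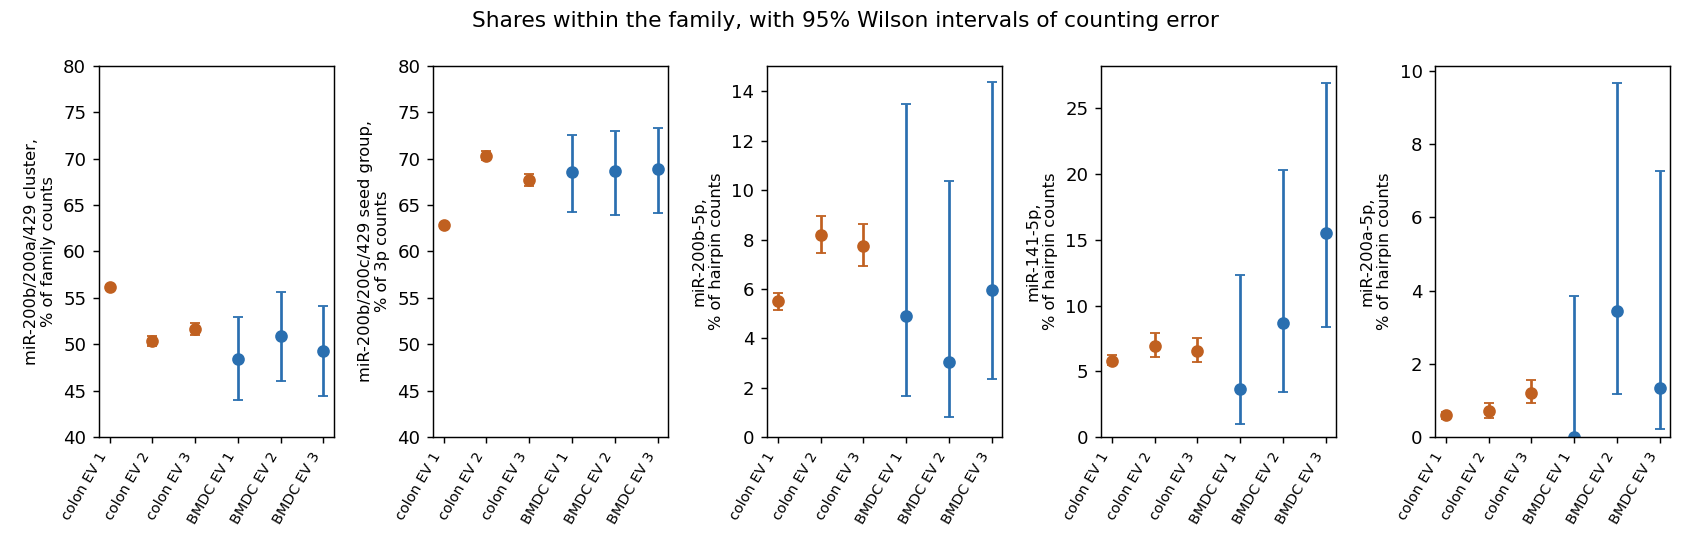
Shares within the family in each library in percent, colon EV in orange and BMDC EV in blue, with bars of the 95% Wilson interval, which covers counting error only. The panels show the chromosome 4 cluster and the seed group of miR-200b-3p, miR-200c-3p and miR-429-3p (axes from 40% to 80%) and the 5p share of Mir200b, Mir141 and Mir200a (axes from 0%). Colon EV replicate 1 sits apart in the first panels at 56.1% and 62.8%, and the bars of BMDC EVs are wide in the 5p panels.

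Other miRNAs with a role close to that of the family were listed for comparison. Of 9 miRNAs known to repress factors of the epithelial-mesenchymal transition, 7 were tested, 5 were lower in BMDC EVs, 1 was higher and 1 was not called, against 36.4% of all tested miRNAs called lower and 40.5% called higher. Of those 7, 4 had 10 counts in all 6 libraries, of which 2 were lower, 1 was higher and 1 was not called. Among the 5 lower, miR-203-3p, miR-192-5p and miR-215-5p are also on the epithelial marker list, so these lists are not independent. miR-205-5p, which acts on ZEB1 and ZEB2 alongside the miR-200 family, was counted 350, 183 and 116 times in colon EVs against 3, 3 and 1 times in BMDC EVs. It passed the filter through colon EVs alone, and its fitted log2 fold change was −5.57 (standard error 0.50). miR-34a-5p, a p53-induced miRNA that acts on SNAI1, went the other way, with a log2 fold change of 3.10 (standard error 0.23, edgeR adjusted p = 9.08e-10). miR-101a-3p had a log2 fold change of −0.72 (standard error 0.41) and was not called (edgeR adjusted p = 0.116).

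Marker lists moved in both directions. The summed level of the 9 epithelial markers outside the family was 118166 to 173720 CPM in colon EVs and 3077 to 4942 CPM in BMDC EVs, and 0 of them were absent from all BMDC EV libraries. Of the epithelial list, miR-31-5p was the 1 miRNA that was higher in BMDC EVs, with 3, 3 and 4 counts for colon EVs against 22, 20 and 12 for BMDC EVs, the only source in which it reached 10 counts. Haematopoietic markers summed to 5137 to 11907 CPM in colon EVs and 306671 to 323257 CPM in BMDC EVs. Of 6 miRNAs of muscle and mesenchyme, 2 were tested and both were called lower in BMDC EVs, against 36.4% of all tested miRNAs. Neither had 10 counts in all 6 libraries. The log2 fold change was −4.76 for miR-143-3p and −2.35 for miR-199a-3p. The list summed to 1344 to 2070 CPM in colon EVs and 78.9 to 250 CPM in BMDC EVs. Neither red cell miRNA listed was tested, with a summed level of at most 51.9 CPM in any library. The part of any of these cell types in the level of the miR-200 family was not tested.

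The miRNAs whose profile over the 6 libraries came nearest to that of the family were found among the 93 other tested miRNAs with a mean normalized count of at least 100. Likeness was the Euclidean distance between mean-centred log2 CPM profiles, with a smaller value for a closer profile. miR-196a-5p was nearest, at 0.43, followed by miR-194-5p at 0.61, miR-196b-5p at 0.65, miR-192-5p at 0.78 and miR-203-3p at 0.85. The 3p members lay between 0.34 and 0.63 from the mean profile of the tested members, of which they are a part. The tested 5p members lay farther than all 5 of these miRNAs, miR-200b-5p at 1.14, miR-141-5p at 1.27 and miR-200a-5p at 2.12. These arms had 0 to 9 counts per BMDC EV library, so counting error enters their distances. The mean normalized count of miR-200a-5p was 29.0, under the minimum set for the other miRNAs. miR-196a-5p and miR-196b-5p come from HOX gene clusters, miR-192-5p and miR-194-5p are abundant in intestinal epithelium, and miR-203-3p is known from stratified epithelium. miR-196a-5p and miR-196b-5p share a seed with each other, and none of the 5 shares one with the miR-200 family. These distances describe 6 libraries in 2 groups and follow mostly the source difference, which was between −5.99 and −5.53 on the log2 scale for these miRNAs.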

How the data were processed

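Small RNA libraries of EVs from 3 colon explant and 3 BMDC preparations were analysed, grouped by their titles, which also number the replicates. The deposited values are the authors' estimated counts for each mature miRNA, not normalized, and no column was left unmatched (0). The submitters' processing notes name STAR 2.7.6a, featureCounts 1.6.3, DESeq2 1.30.1 and the builds GRCm38 and mm10. The miRNA annotation, the division of reads between similar miRNAs and the use of molecular identifiers are not given in the sources used here, so intervals and floors cover counting error only.

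Counts were rounded. In R 4.3.3, the 220 miRNAs that reached 10 counts in 3 or more libraries were fitted with edgeR 4.0.16 (TMM, quasi-likelihood test, Benjamini-Hochberg adjustment over all of them, threshold 0.05). Normalized counts are counts divided by TMM-scaled library sizes and multiplied by their geometric mean, 191581. A standard error is the log2 fold change divided by the square root of F. Arm ratios used a pseudocount of 0.5. DESeq2 1.42.0 and limma 3.58.1 were alternatives. In simulated counts with the same dispersion for every miRNA, 65 of 65 changed miRNAs were recovered among 226, with 1 false call. A far smaller part was changed there than the 76.8% called here. The simulation therefore does not test TMM scaling where most miRNAs differ. Replicates were checked for duplicate libraries, and none were found (chi-square per degree of freedom at least 6.25). Named miRNAs are the members, the marker lists and the 5 nearest profiles. The members and lists were chosen with earlier results of these data known. Same-numbered libraries of the sources did not deviate together (correlations −0.137, −0.05 and −0.134). Positions are from GENCODE vM21, sequences from RefSeq (GRCm38.p6).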

Additional observations from a re-analysis of the deposited data

How the results depend on the processing

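The 8 members that passed the filter, the 5p arms among them through colon EVs alone, kept their direction and an adjusted p under 0.05 in all 159 values of them under the alternatives, with log2 fold changes between −7.09 and −3.95 and adjusted p of at most 0.000526. Leaving out each library in turn, between 5 and 8 members were called lower in BMDC EVs. Beside them, 133 to 150 of the 187 to 195 tested miRNAs were called in either direction. The number was 5 when any colon EV library was left out, because the 5p arms then had too few libraries with 10 counts to be tested. A filter on 2 libraries in place of 3 was chosen after seeing the data. With it 8 were called each time, beside 175 to 190 of 233 to 257 tested miRNAs. Without a count filter all 9 were called, beside 231 of 771 miRNAs. There miR-200c-5p, with 0 counts in BMDC EVs, had an edgeR adjusted p of 0.0229. Numbers above 5 include 5p arms, none of which reached 10 counts in a BMDC EV library, and are a description only.

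Leaving out single libraries, the difference in family share was between −14.5 and −13.1 percentage points, the summed log2 difference between −6.05 and −5.55, the cluster log2 ratio difference between −0.25 and −0.09 and the seed log2 ratio difference between −0.02 and 0.22. The seed ratio difference reversed to −0.0206 without colon EV replicate 1. Arm log2 ratio differences were between 0.34 and 1.84 for Mir200a, −0.66 and −0.22 for Mir200b and 0.03 and 1.05 for Mir141. Mir200a moved to 1.52 with a pseudocount of 1. Scaling by library size alone raised the median log2 fold change of all miRNAs from 0.19 to 0.64, and the summed family difference was then −5.36. With the replicate number as a block, 8 members were called and no call changed, and 164 of all miRNAs were called in place of 169. The labels give no origin for the numbers beyond the titles, and the numbers were not taken as a pairing. In BMDC EVs, depth limits the 5p arms, which had 0 to 9 counts per library.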
